A study of Mus musculus with 8 samples.

Results

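The ligands and receptors of the tumour necrosis factor (TNF) superfamily and the TRAF adaptor proteins were followed in liver RNA of Atp7b knockout (KO) and wild-type (WT) mice. Members were the 47 of 54232 rows of the count table that carry the symbol Tnf, Lta, Ltb, Ltbr, Cd40, Cd40lg, Cd27, Cd70, Fasl or Edar, a numbered Tnfsf or Tnfrsf symbol, or one of Traf1 to Traf7. Tnfrsf10b was left out by that rule, and superfamily genes with other symbols, such as Fas, are treated further on. The 47 genes are 17 ligands, 23 receptors and 7 TRAFs. There were 4 liver libraries of Atp7b KO mice and 4 of WT mice, all 6 months old. The labels name no other allele, treatment or strain for either genotype, and do not say how the Atp7b allele was made. Atp7b encodes a copper transporter of hepatocytes, whose loss causes Wilson disease, and bile acid physiology in that disease is the topic of the series.

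TNF superfamily ligands are mostly membrane-bound trimers made by immune cells and by stressed epithelial cells. Their receptors fall into those with a death domain, which can start apoptosis or necroptosis, those that recruit TRAF adaptors directly, and decoys that bind a ligand without passing on a signal. TRAFs are ubiquitin ligases or scaffolds that lead to NF-κB and stress kinases, and in liver these pathways are known for hepatocyte death and survival, for the reaction of bile ducts and progenitor cells to injury, and for lymphoid cell organisation.

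Levels are CPM, each count as a share of its TMM-scaled library total. Total counts ranged from 14583961 to 18423836 in the KO libraries and from 9880253 to 27530506 in the WT libraries, and between 41 and 44 members had a count in a KO library, against 29 to 41 in a WT library. The targeted gene Atp7b read 8.76, 8.91, 6.50 and 7.15 CPM in KO replicates 1 to 4, against 28.9, 32.0, 9.63 and 27.4 CPM in WT replicates 1 to 4. It was lower in KO (log2 fold change -1.65 ± 0.32; edgeR's quasi-likelihood test, adjusted p = 0.00312) without overlap, but WT replicate 3 lay close to the KO libraries. That library was also the shallowest and stood apart, with correlations of log2 CPM of 0.925 to 0.944 with the other WT libraries, against 0.975 to 0.986 among those. Results are therefore also given without it. Whether the libraries come from different animals is not said in the labels, and p-values therefore reflect only how these libraries vary.

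Among the members with enough counts, 7 rose in KO liver. They were the ligands Ltb, Tnfsf14 and Tnfsf10 and the receptors Tnfrsf12a, Cd40, Tnfrsf23 and Tnfrsf11a, with fold changes of 1.77 to 5.69. No member fell at an adjusted p under 0.05 (edgeR's quasi-likelihood test, Benjamini-Hochberg over all 15811 genes tested). Traf4 and Traf6 were lower at an unadjusted p under 0.05, and DESeq2 called 9 members higher and 1, Traf6, lower. The most abundant receptors, Tnfrsf1a and Ltbr, and 7 of 7 TRAFs did not pass the test.

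Of the 26 members tested, 7 were called higher, or 26.9%, against 17.6% of all genes tested, and 0 lower, against 12.5% of all genes. Calls in either direction made up 30.0% of all genes. The median log2 fold change, KO minus WT, was 0.20 over the tested members and -0.05 over all genes tested. These figures describe the tested members and carry no test. The filter on low counts kept 7 of the 26, among them 5 of the 7 called, through the KO libraries alone, and such genes had to be higher in KO. With WT replicate 3 left out, 28 members were tested, and 10 were called higher, against 26.0% of all genes, and 4 lower, against 23.4% of all genes, the 4 being Tnfrsf1b, Traf4, Traf6 and Traf7. Of the 10, Tnfrsf13b and Tnfsf13b had too few counts for the test with all libraries. In bulk liver RNA a change in the number of cells of a type and a change in RNA per cell cannot be told apart.

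**Figure D1:**
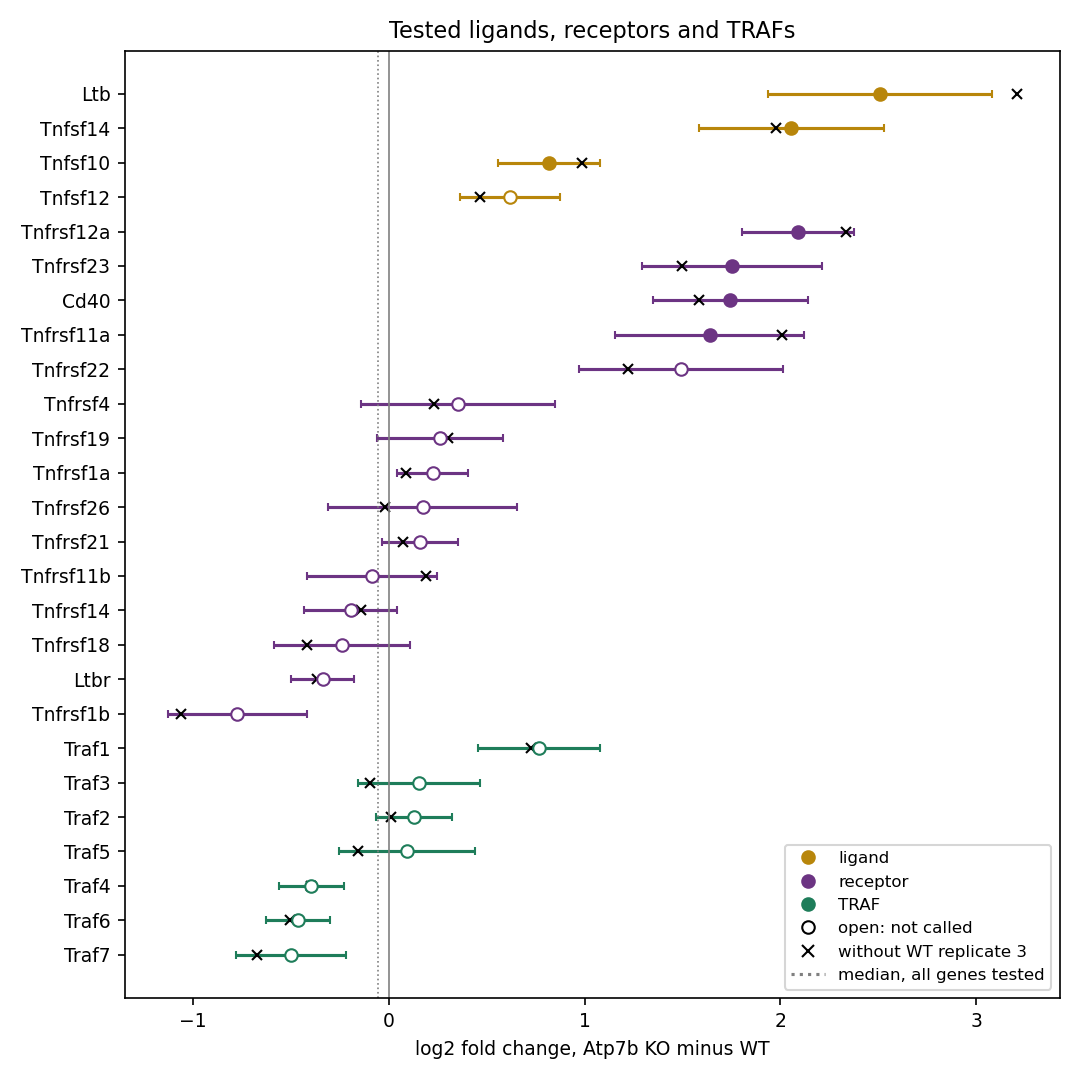
Log2 fold change (Atp7b KO minus WT) of the 26 tested members, grouped as ligands, receptors and TRAFs, with bars for the standard error. Filled points passed the test, open points did not, crosses give the value without WT replicate 3 and the dotted line is the median of all genes tested. The 7 called members lie between 0.82 and 2.51, while the TRAFs lie between -0.50 and 0.77.

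Marker genes of several cell types moved with genotype in the same libraries, and their part in the members' results was not tested. The summed level of 8 cholangiocyte markers was 427 to 1027 CPM in KO and 42.0 to 94.8 CPM in WT, with 7 of 8 called higher. Spp1 alone read 386 to 931 CPM in KO and 26.6 to 66.3 CPM in WT. For 8 T cell markers the sums were 11.6 to 16.7 CPM in KO and 4.25 to 6.42 CPM in WT, with 4 of 6 tested called higher. Stellate cell markers summed to 454 to 562 CPM in KO and 210 to 406 CPM in WT, with 3 of 8 called higher. Dcn alone read 346 to 425 CPM in KO and 136 to 311 CPM in WT. The groups overlapped for Acta2, Des, Pdgfrb, Lrat and Reln, none of them called. Neutrophil markers summed to 6.98 to 16.9 CPM in KO and 2.62 to 6.23 CPM in WT, with 2 of 3 tested called higher and Ly6g at 0 in KO replicates 2 and 4 and in every WT library. The groups overlapped for the sums of macrophage markers (352 to 943 CPM in KO, 157 to 568 CPM in WT), natural killer cell markers (3.24 to 6.05 CPM in KO, 1.97 to 4.11 CPM in WT) and B and plasma cell markers (13.8 to 18.1 CPM in KO, 17.6 to 53.1 CPM in WT). Without WT replicate 3 the macrophage and natural killer cell sums did not overlap, since the highest of the other WT libraries had 291 CPM and 2.20 CPM, and the B and plasma cell sums of the other WT libraries, 23.3 CPM or more, lay above all KO libraries. Called higher were 1 of 9 macrophage markers tested, 1 of 3 natural killer cell markers and 1 of 6 B and plasma cell markers, of which 1 more was called lower. Dendritic cell marker sums overlapped as well (11.8 to 17.7 CPM in KO, 7.79 to 16.1 CPM in WT), but of 6 markers tested 4 were called higher without overlap (Flt3, Xcr1, Siglech and Itgax) and 1, Zbtb46, lower. The groups overlapped too for endothelial markers (81.0 to 153 CPM in KO, 97.8 to 190 CPM in WT), with 1 of 7 called higher and 1 lower. Hepatocyte markers were the most abundant in every library, at 48044 to 70009 CPM in KO and 73653 to 128804 CPM in WT, with 3 of 10 called lower. In WT replicate 3 the macrophage sum was 568 CPM and the stellate cell sum 406 CPM, each the highest of the WT libraries. Among markers called higher, Cd3d, Cd3g, Cd8a, Lck, Nkg7, Flt3, Siglech, Cldn4 and Cftr passed the low-count filter through the KO libraries alone. Their direction, and the counts of markers called, were thus partly set by that filter.

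Ltb showed the largest fold change among the tested members. Ltb (ENSMUSG00000024399.5, mm10 chromosome 17, 35194439 to 35196320, plus strand) encodes lymphotoxin beta, the membrane anchor of the lymphotoxin heterotrimer that signals through Ltbr. It read 2.16, 2.76, 4.22 and 1.49 CPM in KO replicates 1 to 4, and 0.264, 0.430, 1.42 and 0.172 CPM in WT replicates 1 to 4. The groups did not overlap, but KO replicate 4, on 31 reads, came close to WT replicate 3, on 10 reads. Ltb was 5.69-fold higher in KO, a log2 fold change of 2.51 with a standard error of 0.57 (edgeR's quasi-likelihood test, adjusted p = 0.00726), and 3.21 without WT replicate 3. Errors of log2 fold changes are standard errors throughout. The call held whichever library was left out.

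The stretch before the start of Ltb is shown because it was the only one among the called members with a window in the RefSeq promoter table (6 of 7) that holds a match to the NF-κB consensus site. The sequence is chr17:35194257-35194438 of GRCm38.p6, plus strand, ends where the annotated gene begins, and carries the match in capitals.
Ltb: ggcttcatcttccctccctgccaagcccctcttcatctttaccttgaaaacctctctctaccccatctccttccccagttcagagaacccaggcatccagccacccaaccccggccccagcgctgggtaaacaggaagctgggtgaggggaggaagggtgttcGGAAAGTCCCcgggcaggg

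The NF-κB consensus was searched on both strands in the 250 bases before each RefSeq start. A match was found for 5 of the 38 members with a window, and for 8.23% of all 27025 genes with one. The 5 matches are given 5′ to 3′ on the gene's strand, with overlapping matches merged and capitals marking the match. They lie at chr17:35194420-35194429 for Ltb, chr12:111166360-111166369 for Traf3, chr4:145315322-145315332 for Tnfrsf8, chr4:150927956-150927966 for an alternative start of Tnfrsf9, and chr4:152116315-152116324 for an alternative start of Tnfrsf25.
Ltb: GGAAAGTCCC
Traf3: GGGGATTTCC
Tnfrsf8: GGGGAGCCCCC
Tnfrsf9: GGGGATTTCCC
Tnfrsf25: GGGGGCCTCC
Of these genes, Ltb was called higher and Traf3 was not called, while the other three had too few counts for the test.

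Tnf and Lta lie beside Ltb within 10.9 kb on chromosome 17. Both encode ligands of the receptors Tnfrsf1a and Tnfrsf1b and are classic products of activated macrophages and lymphocytes. Tnf had 4, 16, 16 and 5 reads in KO replicates 1 to 4, against 1, 2, 0 and 3 reads in WT replicates 1 to 4. Its groups did not overlap at 0.240 to 0.813 CPM in KO and 0 to 0.129 CPM in WT, but Tnf did not reach the filter. In the fit without a filter on low counts, Tnf was called higher (log2 fold change 2.28, edgeR's quasi-likelihood test, adjusted p = 0.0112), and so were 12.4% of all 34236 genes in that fit. Lta had 6 reads in all KO libraries and 1 in all WT libraries, which is 4.46-fold (0.541 to 205, 95% interval from counting).

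Tnfsf14, the ligand known as LIGHT, binds Ltbr as well as Tnfrsf14 and is made by T cells and other leukocytes. Tnfsf14 (ENSMUSG00000005824.6, minus strand of chromosome 17, 57189492 to 57194177) had 0.698, 0.781, 0.508 and 1.53 CPM in KO replicates 1 to 4, against 0.264, 0.246, 0.142 and 0.172 CPM in WT replicates 1 to 4. Every KO library lay above every WT library. The log2 fold change was 2.06 ± 0.47 (edgeR's quasi-likelihood test, adjusted p = 0.00769), and the level rests on 10 to 32 reads per KO library and 1 to 4 per WT library.

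The receptors of these ligands did not pass the test. Ltbr, which signals mainly through the noncanonical NF-κB branch, read 58.9 ± 8.50 CPM in KO and 74.4 ± 5.33 CPM in WT (SD, n = 4 each). All 4 KO values, 51.1 to 66.5 CPM, lay below all 4 WT values, 68.3 to 79.4 CPM, but the difference did not pass the test (log2 fold change -0.34, edgeR's quasi-likelihood test, adjusted p = 0.139). With library totals in place of TMM factors its log2 fold change was 0.08. Tnfrsf14, the other receptor of Tnfsf14, averaged 1.995 ± 0.251 CPM in KO and 2.29 ± 0.438 CPM in WT (SD, n = 4 each) (edgeR's quasi-likelihood test, adjusted p = 0.587.

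Tnfsf10 encodes TRAIL, a ligand of death receptors and of the mouse decoys Tnfrsf22 and Tnfrsf23. Tnfsf10 (ENSMUSG00000039304.11, plus strand of chromosome 3, 27317028 to 27342427) had 13.7, 14.1, 8.79 and 11.2 CPM in KO replicates 1 to 4, against 4.22, 6.57, 9.63 and 6.86 CPM in WT replicates 1 to 4. KO replicate 3 lay below WT replicate 3, so the groups overlapped. The log2 fold change of 0.82 ± 0.26 passed the test (edgeR's quasi-likelihood test, adjusted p = 0.0355), but the call was kept in only 2 of 8 fits that left out a library. In those fits its adjusted p ran from 0.0026, without WT replicate 3, to 0.103, without KO replicate 2.

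The decoys Tnfrsf22 and Tnfrsf23 lie next to each other on chromosome 7, with Tnfrsf26, a further receptor of the mouse cluster, within 78.2 kb in all. Tnfrsf23 (ENSMUSG00000037613.16, on the minus strand, 143665809 to 143685872) had 1.27, 1.61, 1.17 and 1.25 CPM in KO replicates 1 to 4, against 0.440, 0.246, 0 and 0.643 CPM in WT replicates 1 to 4. The groups did not overlap, and the log2 fold change was 1.75 ± 0.46 (edgeR's quasi-likelihood test, adjusted p = 0.0149). The call was lost without WT replicate 2, at adjusted p = 0.0507. Tnfrsf22 read 1.71, 2.11, 0.762 and 1.06 CPM in KO replicates 1 to 4, against 0.352, 0.614, 0 and 0.729 CPM in WT replicates 1 to 4. It had no overlap either but missed the threshold (1.49 ± 0.52, edgeR's quasi-likelihood test, adjusted p = 0.0531), and it passed without WT replicate 3 (adjusted p = 0.0293) and with DESeq2 (0.0152). Tnfrsf22 was also called without KO replicate 3, with library totals in place of TMM factors, and without a filter on low counts. Tnfrsf26 averaged 0.594 ± 0.289 CPM in KO and 0.516 ± 0.311 CPM in WT (SD, n = 4 each; edgeR's quasi-likelihood test, adjusted p = 0.822). The strand setting of the counting is not given in the sources used here, and 4.14% of the exon bases of Tnfrsf23 are shared with an antisense transcript.

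Tnfrsf12a had the lowest p-value of the members. It encodes the receptor of the cytokine TWEAK, a small receptor that recruits TRAFs and is known to be induced in injured liver, where it acts on progenitor and ductular cells. Tnfrsf12a (ENSMUSG00000023905.14, minus strand of chromosome 17, 23675445 to 23677468) had 20.8, 23.1, 29.9 and 19.6 CPM in KO replicates 1 to 4, against 6.42, 3.56, 8.49 and 4.03 CPM in WT replicates 1 to 4. The lowest KO library, replicate 4, lay well above the highest WT library, replicate 3. Tnfrsf12a was 4.26-fold higher in KO (log2 fold change 2.09 ± 0.29; edgeR's quasi-likelihood test, adjusted p = 0.000346). Over the 8 fits that each left out a library, it stayed between 1.91 and 2.33, and Tnfrsf12a was called in all 8.

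The sequence before Tnfrsf12a is shown as that of the most abundant member that rose. It is chr17:23677469-23677699 of GRCm38.p6, written 5′ to 3′ on the minus strand, ends where the annotated gene begins, and holds no match to the NF-κB consensus, hence no capitals.
Tnfrsf12a: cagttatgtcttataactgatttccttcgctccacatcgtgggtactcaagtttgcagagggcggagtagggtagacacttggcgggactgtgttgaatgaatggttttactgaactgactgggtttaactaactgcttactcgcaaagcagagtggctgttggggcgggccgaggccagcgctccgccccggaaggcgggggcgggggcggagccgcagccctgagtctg

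Tnfsf12 encodes TWEAK itself. It averaged 4.07 ± 0.485 CPM in KO and 2.61 ± 0.811 CPM in WT (SD, n = 4 each), and all KO libraries, at 3.49 to 4.62 CPM, lay above all WT libraries, at 1.56 to 3.43 CPM. The log2 fold change of 0.62 ± 0.25 did not pass the test (edgeR's quasi-likelihood test, adjusted p = 0.092). Tnfsf12 was called higher with DESeq2 and with library totals in place of TMM factors. Its count is uncertain, because 48.3% of its exon bases are also annotated to the readthrough gene Tnfsfm13, which joins it to Tnfsf13.

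**Figure D2:**
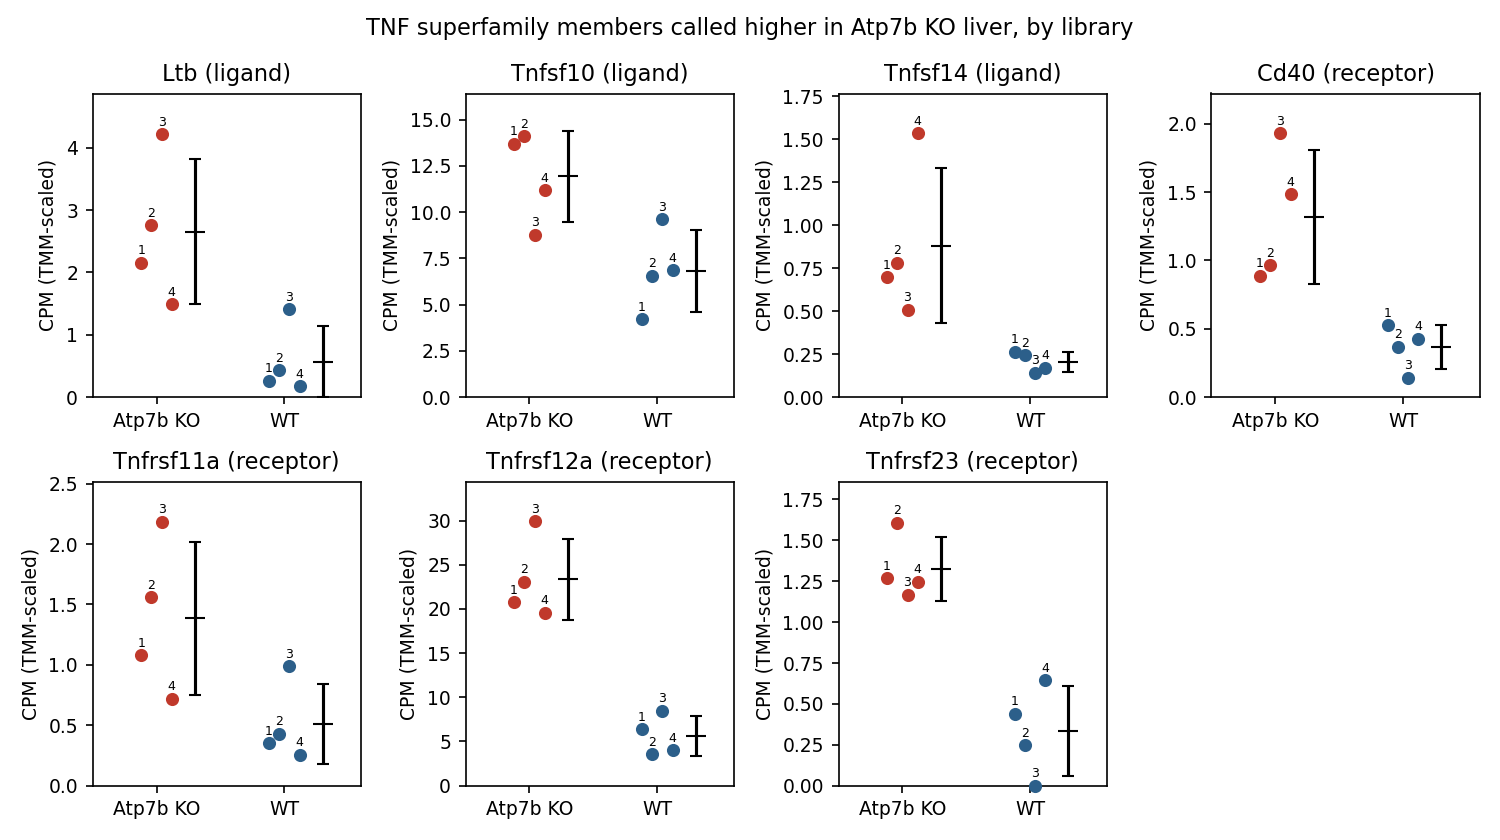
CPM of the 7 members called higher in Atp7b KO, in each of the 4 KO libraries (left, red) and 4 WT libraries (right, blue), numbered by replicate. Black bars give mean and SD, and each vertical axis starts at 0. The groups overlap for Tnfsf10 and Tnfrsf11a and are separate for the other five.

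Cd40 encodes the costimulatory receptor of antigen-presenting cells. Cd40 (ENSMUSG00000017652.16, plus strand of chromosome 2, 165055627 to 165072948) had 0.889, 0.965, 1.93 and 1.49 CPM in KO replicates 1 to 4, against 0.528, 0.369, 0.142 and 0.429 CPM in WT replicates 1 to 4. All KO libraries were above all WT libraries. The log2 fold change was 1.74 ± 0.40 (edgeR's quasi-likelihood test, adjusted p = 0.00716) and kept its call in all 8 fits that left out a library. Its ligand gene Cd40lg, made by activated T cells, had 6 reads over the KO libraries and 7 over the WT libraries.

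Tnfrsf11a encodes RANK, the receptor of osteoclast precursors and dendritic cells. Tnfrsf11a (ENSMUSG00000026321.7, plus strand of chromosome 1, 105780718 to 105847981) had 1.08, 1.56, 2.18 and 0.719 CPM in KO replicates 1 to 4, against 0.352, 0.430, 0.991 and 0.257 CPM in WT replicates 1 to 4. KO replicate 4 lay below WT replicate 3. The log2 fold change was 1.64 ± 0.48 (edgeR's quasi-likelihood test, adjusted p = 0.0261), but the gene was called in only 3 of 8 fits that left out a library, with adjusted p from 0.0037, without WT replicate 3, to 0.0899, without WT replicate 4. The ligand gene Tnfsf11 had 5 reads over the KO libraries and 1 over the WT libraries. Tnfrsf11b, which encodes the soluble decoy osteoprotegerin, averaged 4.10 ± 1.29 CPM in KO and 4.44 ± 1.96 CPM in WT (SD, n = 4 each; edgeR's quasi-likelihood test, adjusted p = 0.874).

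The numbers in the library names begin with 0 for 2 KO libraries, with 1 for 1 KO and 2 WT libraries, and with 2 for 1 KO and 2 WT libraries. The labels do not call these groups batches. Within the libraries that begin with 1 and within those that begin with 2, the log2 differences, KO minus WT, were 2.502 and 2.01 for Ltb, 0.99 and 2.35 for Tnfsf14, and 0.45 and 0.72 for Tnfsf10. They were 2.001 and 2.33 for Tnfrsf12a, 2.32 and 1.64 for Cd40, 2.33 and 1.38 for Tnfrsf23, and 1.67 and 0.89 for Tnfrsf11a. All of these values lie above 0, but each of these groups holds only 1 KO library. For Ltb, Tnfsf14, Tnfrsf12a, Cd40 and Tnfrsf23, whose KO and WT libraries did not overlap, the sign was fixed beforehand. With the first digit as a covariate, Ltb, Tnfsf14, Tnfrsf12a and Cd40 stayed called, and Tnfrsf11a (adjusted p = 0.0613), Tnfrsf23 (0.0828) and Tnfsf10 (0.269) did not, by edgeR's quasi-likelihood test. The 2 KO libraries that begin with 0 have no WT library in their group, so they add nothing to the fold changes of that fit. Lost calls there may reflect fewer KO libraries as well as the digit.

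The receptors of TNF itself were among the most abundant members. Tnfrsf1a, which carries a death domain and is found on most cells, read 65.9 ± 5.09 CPM in KO and 56.3 ± 11.8 CPM in WT (SD, n = 4 each; edgeR's quasi-likelihood test, adjusted p = 0.39). Tnfrsf1b, which binds TRAFs and is found mainly on leukocytes and endothelium, read 12.2, 16.0, 14.3 and 16.9 CPM in KO replicates 1 to 4, against 23.1, 36.7, 8.49 and 32.3 CPM in WT replicates 1 to 4. WT replicate 3 was the lowest of all 8 libraries, while the other WT libraries lay above all KO libraries. With all libraries the log2 fold change was -0.77 ± 0.36 (edgeR's quasi-likelihood test, adjusted p = 0.132). Without WT replicate 3 it was -1.06 with adjusted p = 0.000318, so with the filter in place 1 library decides the call. In the fit without a filter on low counts, Tnfrsf1b was called lower with all libraries.

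Per kilobase of annotated exon, the levels of Tnfrsf1a were 25.4 in KO and 21.7 in WT, and those of Ltbr 25.01 in KO and 31.6 in WT, in CPM per kb. Tnfrsf12a came next in KO at 12.1 CPM per kb and was sixth among the members in WT at 2.91 CPM per kb. Its KO libraries spanned 10.1 to 15.5 CPM per kb, above the 7.19 to 9.61 CPM per kb of Traf4 in KO, the fourth member in that order. On the same scale the ligand Tnfsf12 stood at 2.69 in KO and 1.72 in WT, Tnfsf10 at 2.27 in KO and 1.30 in WT, and Ltb at 1.75 in KO and 0.376 in WT. No other ligand exceeded 0.477 CPM per kb in either genotype, the value of Tnfsf14 in KO.

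The remaining tested receptors did not pass the test, and their groups overlapped. Tnfrsf21, a death-domain receptor, had a log2 fold change of 0.16, and Tnfrsf19, which binds TRAFs and is widely expressed in epithelial development, 0.26. For the T cell costimulatory receptors Tnfrsf4 and Tnfrsf18, 15.1 kb apart on chromosome 4, the values were 0.35 and -0.24. Adjusted p of these 4 genes lay between 0.576 and 0.652 by edgeR's quasi-likelihood test. Tnfrsf18 shares 27.2% of its exon bases with an antisense gene, so its count is uncertain.

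None of the 7 TRAF genes was called with all libraries. Traf6, the adaptor shared with Toll-like and interleukin receptors, read 11.5, 14.6, 13.3 and 13.2 CPM in KO replicates 1 to 4, against 15.6, 19.8, 17.1 and 19.8 CPM in WT replicates 1 to 4. All KO libraries lay below all WT libraries, and the log2 fold change of -0.46 ± 0.16 came close to the threshold (edgeR's quasi-likelihood test, adjusted p = 0.0539). It was past it with RLE size factors (adjusted p = 0.0492), with DESeq2 (0.0139), without WT replicate 1 (0.0415) and without WT replicate 3 (0.0132).

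Traf1, itself a known NF-κB target that modulates receptor signalling, lay the other way. It read 0.889, 1.06, 1.57 and 0.863 CPM in KO replicates 1 to 4, against 0.792, 0.614, 0.566 and 0.600 CPM in WT replicates 1 to 4. The groups did not overlap (log2 fold change 0.77 ± 0.31, edgeR's quasi-likelihood test, adjusted p = 0.089). Traf4 averaged 27.51 ± 3.60 CPM in KO and 36.2 ± 4.81 CPM in WT, and Traf7 13.6 ± 1.20 CPM in KO and 19.1 ± 8.43 CPM in WT (SD, n = 4 each). Their adjusted p, 0.104 and 0.212 with all libraries, were 0.0483 and 0.0216 without WT replicate 3 by edgeR's quasi-likelihood test. Traf2, which with Traf3 restrains the noncanonical NF-κB kinase, averaged 13.7 ± 1.62 CPM in KO and 12.5 ± 2.68 CPM in WT, and Traf3 11.99 ± 1.40 CPM in KO and 10.7 ± 4.80 CPM in WT (SD, n = 4 each). Traf5 averaged 3.93 ± 0.630 CPM in KO and 3.60 ± 1.84 CPM in WT (SD, n = 4 each). The log2 fold changes of these 3 genes were 0.10 to 0.15, with adjusted p of 0.661 or more by edgeR's quasi-likelihood test.

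Over the tested members, 8 had all KO libraries above all WT libraries, against 18.7% of all genes tested, and 2, Ltbr and Traf6, had all below, against 13.4%. In either direction the groups were separate in 32.1% of all genes tested. As a share of the 26 tested members these counts are 30.8% and 7.69%. Of the 8, Cd40, Ltb, Tnfrsf22, Tnfrsf23, Tnfsf14 and Traf1 passed the low-count filter through the KO libraries alone. Their separation was thus partly set by that filter, and the shares carry no test.

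The other 21 members, 13 ligands and 8 receptors, had too few counts for the test. Most are genes of lymphocyte costimulation and B cell survival. Tnfsf13b, the B cell survival factor BAFF, had 8, 26, 15 and 20 reads in KO replicates 1 to 4, against 6, 2, 0 and 7 reads in WT replicates 1 to 4. Its receptor Tnfrsf13b had 11, 18, 13 and 9 reads in KO replicates 1 to 4, against 1, 4, 5 and 1 reads in WT replicates 1 to 4. In CPM the groups overlapped for both genes. In the fit without a filter, Tnfsf13b (adjusted p = 0.0146) and Tnfrsf13b (0.0415) were called higher by edgeR's quasi-likelihood test. The other receptors of this ligand were near 0, with 10 reads in KO and 3 in WT for Tnfrsf13c, and 2 in KO and 1 in WT for Tnfrsf17.

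Tnfrsf8, a receptor of activated lymphocytes, had 3, 9, 2 and 5 reads in KO replicates 1 to 4 and none in any WT library. Against a floor of 3 reads over the WT group, and with the KO reads taken as exact, Tnfrsf8 was 4.71-fold higher in KO. The fit without a filter called it (edgeR's quasi-likelihood test, adjusted p = 0.00334). Its ligand gene Tnfsf8 had 13 reads over the KO libraries and 4 over the WT libraries. Tnfrsf9 had 18 reads over KO and 3 over WT, which is 4.46-fold (1.30 to 23.6, 95% interval from counting), and was not called in that fit (adjusted p = 0.131). Tnfsf13, with 8, 9, 10 and 5 reads in KO replicates 1 to 4 and 2, 3, 1 and 5 in WT replicates 1 to 4, was not called either (adjusted p = 0.202).

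In that fit 12 of 47 members were called higher, against 12.4% of all genes, and 1, Tnfrsf1b (adjusted p = 0.0445), lower, against 6.13% of all genes. Fasl, the ligand of the death receptor Fas, had 23 reads over KO and 10 over WT (adjusted p = 0.434). Cd27, a costimulatory receptor of lymphocytes, had 22 over KO and 13 over WT (0.700). Tnfrsf25, a death-domain receptor of T cells, had 17 reads over KO and 26 over WT (0.258). Tnfsf9 had 13 over KO and 4 over WT. Edar, with 2 reads over KO and 3 over WT, and Tnfsf4, Tnfsf15, Tnfsf18 and Cd70, with 1 to 4 reads over KO and 0 or 1 over WT, were close to undetected at this depth. A count of 3 corresponds to 0.138 to 0.190 CPM in a KO library and 0.129 to 0.425 CPM in a WT library. Intervals cover counting error only, and the floor covers it on the WT side alone.

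**Figure D3:**
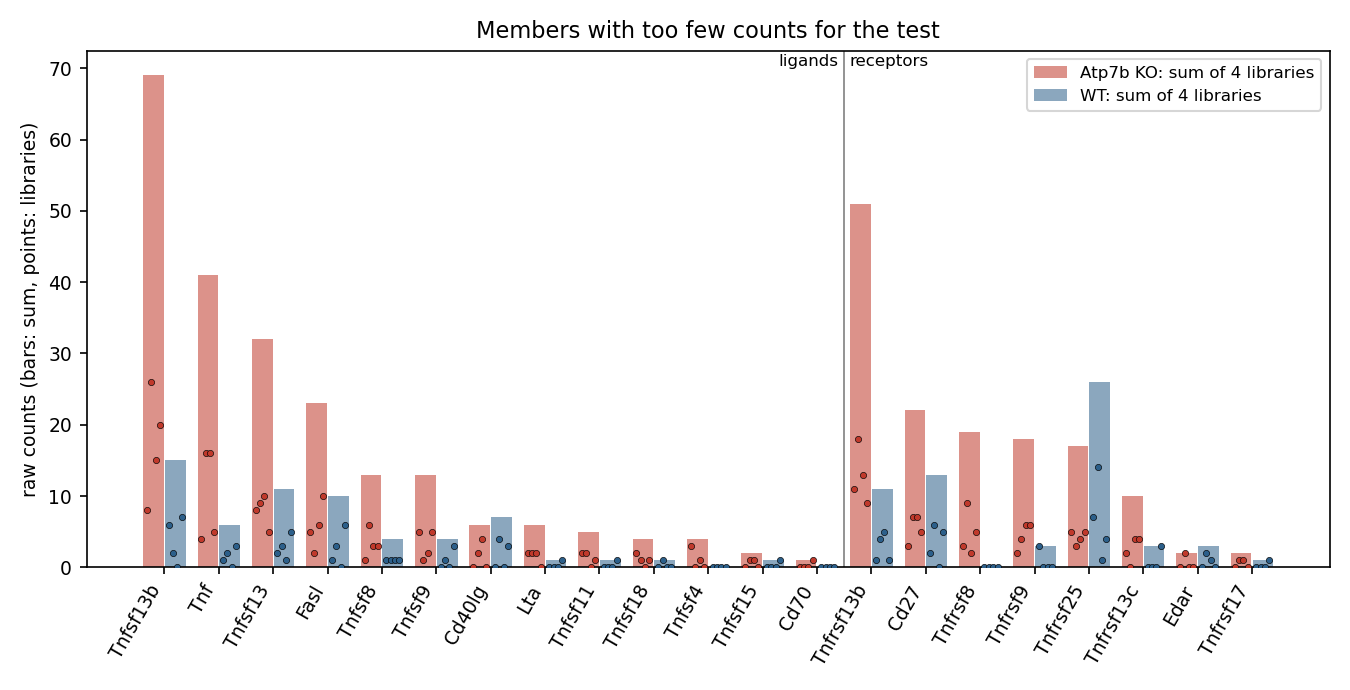
Raw counts of the 21 members below the filter, as sums over the 4 Atp7b KO libraries (left bar of each pair, red) and the 4 WT libraries (right bar, blue), with a point for each library. Ligands are left of the line and receptors right of it. Tnfsf13b reaches 69 reads over KO and 15 over WT, and Tnfrsf25 is higher in WT, at 17 reads over KO and 26 over WT.

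Of 5 superfamily genes whose symbols do not follow the pattern, 1 was called. Eda2r, a receptor of ectodysplasin, read 26.8, 19.4, 27.6 and 22.2 CPM in KO replicates 1 to 4, against 0.352, 0.737, 3.82 and 1.84 CPM in WT replicates 1 to 4 (log2 fold change 3.94 ± 0.50, edgeR's quasi-likelihood test, adjusted p = 0.000225). Its ligand gene Eda averaged 2.66 ± 0.280 CPM in KO and 1.601 ± 0.355 CPM in WT (SD, n = 4 each) without overlap (edgeR's quasi-likelihood test, adjusted p = 0.0502). The death receptor gene Fas averaged 26.03 ± 2.15 CPM in KO and 20.4 ± 2.499 CPM in WT (SD, n = 4 each; edgeR's quasi-likelihood test, adjusted p = 0.114), and Fas passed without WT replicate 3 (adjusted p = 0.0143). Ngfr was at 2.69 ± 0.182 CPM in KO and 2.66 ± 1.12 CPM in WT (SD, n = 4 each), and Relt, with 35 reads over KO and 18 over WT, was below the filter.

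Downstream of the receptors, 42 signalling genes were listed, from adaptors and kinases to NF-κB subunits and their inhibitors. Of 41 tested, 3 rose and 4 fell, 7.32% and 9.76%, beside 17.6% and 12.5% over all genes, and the median log2 fold change was -0.08. Mlkl, the executor of necroptosis downstream of TNF receptors, read 33.8, 36.5, 32.1 and 31.7 CPM in KO replicates 1 to 4, against 5.02, 5.10, 2.69 and 4.97 CPM in WT replicates 1 to 4 (log2 fold change 2.89 ± 0.21, edgeR's quasi-likelihood test, adjusted p = 6.71e-06). Mlkl was called in every alternative. Ripk3, the kinase that acts on Mlkl, averaged 1.31 CPM in KO and 1.20 CPM in WT (adjusted p = 0.877).

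Relb, the subunit of the noncanonical NF-κB branch that Ltbr, Cd40, Tnfrsf11a and Tnfrsf12a engage, read 3.62, 4.50, 5.79 and 3.55 CPM in KO replicates 1 to 4, against 1.85, 1.66, 1.27 and 0.900 CPM in WT replicates 1 to 4. The groups did not overlap, and the log2 fold change was 1.63 ± 0.29 (edgeR's quasi-likelihood test, adjusted p = 0.00193). Its partner subunit gene Nfkb2 averaged 9.26 CPM in KO and 7.25 CPM in WT (adjusted p = 0.508). The kinase gene of that branch, Map3k14, averaged 4.24 ± 0.556 CPM in KO and 2.05 ± 1.14 CPM in WT (SD, n = 4 each; edgeR's quasi-likelihood test, adjusted p = 0.0802).

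Tnip1, an inhibitor of NF-κB signalling, was the third that rose (14.7 ± 3.25 CPM in KO, 6.17 ± 2.57 CPM in WT, SD, n = 4 each; edgeR's quasi-likelihood test, adjusted p = 0.0132). The 4 that fell were Cflar, the caspase-like inhibitor of death receptor signalling (62.8 ± 8.997 CPM in KO, 99.9 ± 12.4 CPM in WT, SD, n = 4 each), Chuk, an IκB kinase, Tab2, an adaptor of the kinase Map3k7, and Nfkbia, the main IκB inhibitor. Cflar had a log2 fold change of -0.67, Tab2 -0.57 and Nfkbia -0.53, with adjusted p of 0.0134, 0.0184 and 0.0206 by edgeR's quasi-likelihood test. Chuk was at -1.04 (adjusted p = 0.0164), and at -0.68 without WT replicate 3, which read 415 CPM against 182 to 198 CPM in the other WT libraries. Of these 4, Cflar kept its call in all 8 fits that left out a library. Tab2 was called in 4 of them, losing its call without WT replicate 2 and without KO replicates 1, 2 and 3 (adjusted p from 0.0548 to 0.0601). Nfkbia was called in 3, losing its call without WT replicates 2 and 4 and without KO replicates 1, 2 and 4 (adjusted p from 0.0523 to 0.0656). Chuk lost its call without KO replicate 2 (adjusted p = 0.0542) and without KO replicate 3 (0.0519). With the first digit of the library number as a covariate, Cflar alone of the 4 was called. With library totals in place of TMM factors 11 signalling genes were called higher and 0 lower, so these calls depend on the scaling. Without WT replicate 3, 6 of 41 were called higher and 11 lower, beside 26.0% and 23.4% of all genes.

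Of 25 textbook NF-κB output genes, 19 were tested, 10 rose and 1 fell, or 52.6% and 5.26%, beside 17.6% and 12.5% of all genes tested. Their median log2 fold change was 0.96, and that of all genes tested -0.05. The list was chosen with earlier results of these data known, and its counts carry no test. The other 8 were not called. Of these, Saa3, Irf1, Tnfaip2 and Nfkbiz had log2 fold changes under 0, and Cxcl2, Il1b, Junb and Csf1 above 0. Among the output genes called higher, Cxcl5, Ier3 and Gadd45b passed the low-count filter through the KO libraries alone. The share called higher was thus partly set by that filter. Vcam1, an adhesion molecule for leukocytes, averaged 24.5 ± 4.06 CPM in KO and 8.31 ± 2.16 CPM in WT, and Ccl5, a T cell chemokine, 2.79 ± 0.779 CPM in KO and 0.738 ± 0.110 CPM in WT (SD, n = 4 each). Gadd45b, a stress-response gene, averaged 2.98 ± 1.11 CPM in KO and 0.517 ± 0.233 CPM in WT (SD, n = 4 each). Their log2 fold changes were 1.56, 1.95 and 2.62, with adjusted p of 0.000573, 0.000771 and 0.000637 by edgeR's quasi-likelihood test. Cxcl5, a neutrophil chemokine, had 87 reads over KO and 1 over WT, which is 64.7-fold (11.3 to 2584, 95% interval from counting). Sod2, the mitochondrial superoxide dismutase, fell to 81.7 ± 7.26 CPM in KO, against 146 ± 14.0 CPM in WT (SD, n = 4 each), a call lost when library totals replaced TMM factors (edgeR's quasi-likelihood test, adjusted p = 0.0706). The members and these lists share no gene, and the T cell, neutrophil, stellate cell and cholangiocyte marker sums given above were also higher in every KO library than in any WT library. Most of the stellate cell sum came from Dcn, and most of the cholangiocyte sum from Spp1. The hepatocyte marker sum was lower in every KO library than in any WT library. Most of it came from Alb, whose groups overlapped and which was not called (edgeR's quasi-likelihood test, adjusted p = 0.117).

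**Figure D4:**
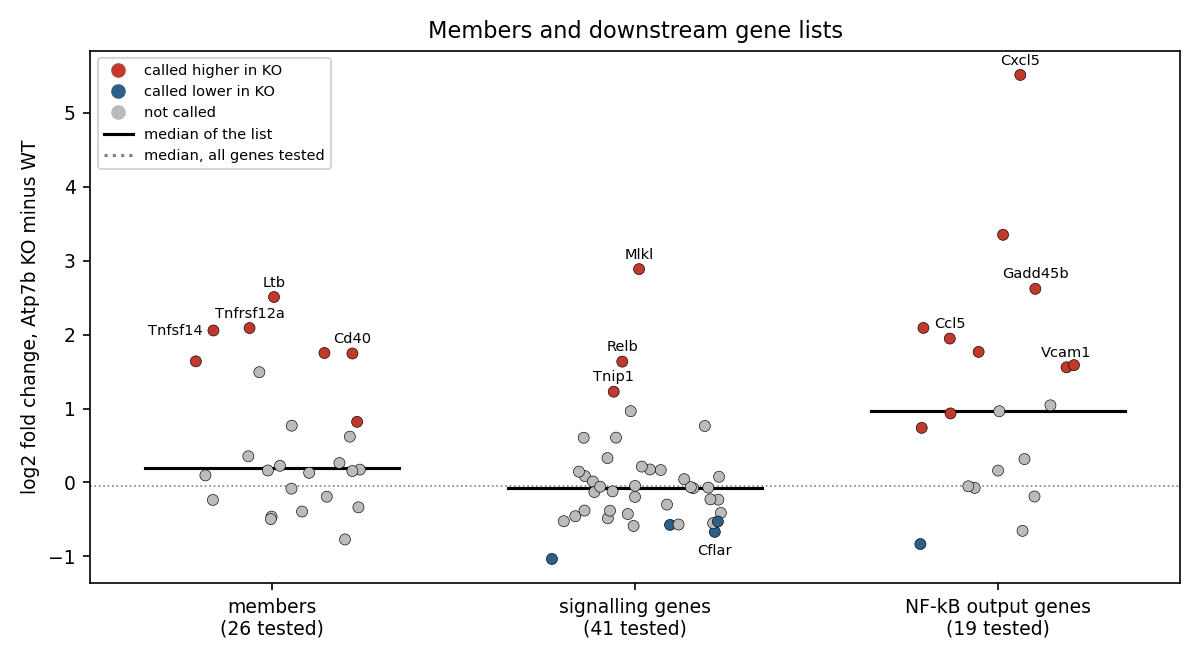
Log2 fold change (Atp7b KO minus WT) of the tested members, signalling genes and NF-κB output genes, 1 point per gene, coloured by call, with the list median as a bar and the median of all genes tested as a dotted line. The 4 genes with the lowest p-values in each list are named. The medians are 0.20 for the members, -0.08 for the signalling genes and 0.96 for the output genes.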

How the data were processed

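RNA sequencing gave 4 liver libraries of Atp7b KO and 4 of WT mice. The deposited table holds whole-number counts per gene for each library, which the authors made after cutadapt, FastQC and STAR with build mm10, per the submitters' processing notes. The sources used here name neither the counting program nor its strand setting nor the treatment of reads shared between genes. Total counts ranged from 9880253 to 27530506, so low members rest on few reads.

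Genes were kept by edgeR's filterByExpr with a minimum count of 10 (0.599 CPM in at least 4 libraries), which left 15811 of 54232. Counts were scaled by TMM and tested with edgeR 4.0.16 (quasi-likelihood test, genotype only, limma 3.58.1, R 4.3.3). The Benjamini-Hochberg adjustment ran over the whole set of tested genes, with calls made under 0.05. The script was tested on simulated data. Detection there reached 2.99% at a simulated difference of 1.5-fold, 20.9% at 2-fold and 93.9% at 4-fold. Only 67, 67 and 66 of 15563 genes were changed at these sizes, and 79 calls were made in all. With 4746 calls in the data the adjustment was less strict, so these rates may understate detection there. Genes that did not pass the test may still differ between genotypes, above all by 2-fold or less.

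Members were chosen by symbol, and members and gene lists were chosen with earlier results of these data known. Called members are given in every library. Untested members are given as counts, and in pathway lists the genes with the lowest p-values are named. Alternatives were RLE factors, library totals, no filter, a stricter filter (at least 1 CPM in at least 4 libraries), DESeq2 1.42.0, a threshold of 0.01, the first digit of the library number as a covariate, and leaving out each library. Coordinates come from GENCODE M21 and promoter windows from RefSeq, both on GRCm38.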

Additional observations from a re-analysis of the deposited data

Results flagged for a closer look

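In 2 of 52 groups of 4 libraries, 1 library lay far from the other three by Dixon's criterion, which chance meets in about 1 in 20 groups. Tnfrsf21 read 5.85 CPM in KO replicate 4, above the 4.78 to 4.93 CPM of the other KO libraries. Traf3 read 9.91 CPM in KO replicate 3, below the 12.4 to 12.9 CPM of the other KO libraries. Neither gene was called, and 0 of these values came from WT replicate 3.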

How the results depend on the processing

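With all libraries and TMM factors, 7 members were called higher and 0 lower, 3 signalling genes higher and 4 lower, 10 NF-κB output genes higher and 1 lower, and 2775 of all genes higher and 1971 lower. The cause of the changes given here was not tested. With library totals in place of TMM factors the median over all genes moved to a log2 fold change of 0.37, against -0.05 with TMM, and all genes split into 4804 higher and 642 lower. Signalling genes then split into 11 higher and 0 lower, 11 in all, and output genes had 0 lower. Without a filter 13 members were called, 12 higher and 1 lower, 2 signalling genes were lower, and 4244 of all genes were higher. With the first digit as a covariate 4 members, 1 signalling gene that was lower and 2940 of all genes (2016 higher, 924 lower) were called. The KO libraries that begin with 0 add nothing to the fold changes of that fit. At an adjusted p under 0.01 the counts were 4 members, 2 signalling genes with 0 lower, and 2872 of all genes with 912 lower. The stricter filter called 4 members from fewer genes tested. RLE factors and DESeq2 each called 1 member lower, and DESeq2 2 output genes lower. Leaving out each library gave 4 to 14 members (4 to 10 higher, 0 to 4 lower) and 4 to 17 signalling genes (3 to 6 higher, 1 to 11 lower). For output genes the range was 9 to 13 (8 to 11 higher, 1 to 2 lower), and for all genes 3644 to 8104 (2325 to 4267 higher, 1315 to 3837 lower). The highest member count came without WT replicate 3.

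Of the member fold changes under each alternative, 310 kept direction and side of the threshold, 16 became called, 15 lost the call and 16 changed sign, none of them in a gene called with all libraries. With library totals the log2 fold changes were 0.082 for Ltbr, 0.37 for Tnfrsf11b, 0.24 for Tnfrsf14, 0.15 for Tnfrsf18 and 0.036 for Traf4, and with the covariate -0.087 for Tnfrsf19 and -0.11 for Traf5. Over the fits that left out 1 library, the values ran from -0.30 to 0.19 for Tnfrsf11b, -0.41 to 0.063 for Tnfrsf18, -0.0027 to 0.47 for Tnfrsf19, -0.16 to 0.45 for Tnfrsf26, -0.0098 to 0.68 for Tnfrsf4, -0.094 to 0.38 for Traf3 and -0.15 to 0.36 for Traf5. No paired analysis was possible because the labels give no replicate numbers that the genotypes share. Depth limits the 21 members below the filter, of which the fit without a filter called 4.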
